A study of Mus musculus with 2 samples.

Results

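The genes described here are 10 core clock and clock output genes, chosen by name: Arntl, Clock, Per1, Per2, Per3, Cry1, Cry2, Nr1d1, Dbp and Ciart. All 10 were found among the 55536 annotated genes, each under a single identifier, and all 10 exceeded a mean of 100 expected counts. They were measured in total RNA of the gastrocnemius, a fast muscle of the calf, from adult male mice of 8 to 10 months. The labels name the strain 5xFAD/CAST and the sample 5xFAD X Cast, where CAST is an inbred strain derived from Mus musculus castaneus. There was 1 group with 2 libraries, biological replicates 1 and 2, which are separate biosamples under 1 donor entry, and the sources used here do not state whether these are different animals. The 5xFAD line expresses mutant human transgenes from a neuronal promoter and serves as an amyloid model of the brain. Both libraries belong to that single group, so no genotype is compared. Each library began from 300 ng of RNA, and the time of day at collection is not stated in the sources used here.

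The circadian clock of a cell is a feedback loop of transcription. ARNTL (also called BMAL1) and CLOCK bind E-boxes and switch on the Per and Cry genes, whose proteins return to the nucleus and inhibit them. The same activators drive Nr1d1, whose product REV-ERB alpha represses Arntl, so Arntl RNA and the RNA of E-box genes are known to peak at opposite times of day. Dbp is a direct output of the loop and acts on D-boxes, and the protein of Ciart (also called CHRONO) is a further inhibitor of the activators. In skeletal muscle this loop is known to time genes of fuel use.

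Promoter windows of the reference assembly were searched for the loop's binding letters, and the 6 windows with a match are printed. RefSeq windows on GRCm38.p6, the assembly of mm10, were matched for 9 of the 10 genes, all but Per2, and the 250 bases upstream of the start were searched on both strands. The motifs were the E-box CACGTG, the related CACGTT, the D-box as TTATGTAA or TTACGTAA, the core of the REV-ERB and ROR element as TAGGTCA or TGGGTCA, and the cyclic AMP element TGACGTCA. No motif overlapped another in these 9 windows. Below, written from 5′ to 3′ on the gene's own strand and ending at the base before the start, capitals mark the matches.
Ciart (chr3:95882229-95882478, reverse strand): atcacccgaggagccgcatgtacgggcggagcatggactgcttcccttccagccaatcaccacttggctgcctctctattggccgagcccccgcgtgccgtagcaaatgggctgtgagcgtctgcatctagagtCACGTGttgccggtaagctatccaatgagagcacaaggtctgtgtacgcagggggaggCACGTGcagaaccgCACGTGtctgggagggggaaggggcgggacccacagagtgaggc
Per1 (chr11:69098699-69098948, forward strand): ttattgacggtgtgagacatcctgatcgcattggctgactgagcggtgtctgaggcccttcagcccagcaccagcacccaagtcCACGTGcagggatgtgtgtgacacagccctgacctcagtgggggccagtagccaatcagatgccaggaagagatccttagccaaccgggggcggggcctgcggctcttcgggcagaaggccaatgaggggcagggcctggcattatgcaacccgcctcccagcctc
Cry1 (chr10:85185055-85185304, reverse strand): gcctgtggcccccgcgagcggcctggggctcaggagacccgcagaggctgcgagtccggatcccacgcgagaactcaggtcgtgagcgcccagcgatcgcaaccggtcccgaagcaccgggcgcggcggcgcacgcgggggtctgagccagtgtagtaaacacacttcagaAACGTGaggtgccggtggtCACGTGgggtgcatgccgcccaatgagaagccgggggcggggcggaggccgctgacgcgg
Cry2 (chr2:92434070-92434319, reverse strand): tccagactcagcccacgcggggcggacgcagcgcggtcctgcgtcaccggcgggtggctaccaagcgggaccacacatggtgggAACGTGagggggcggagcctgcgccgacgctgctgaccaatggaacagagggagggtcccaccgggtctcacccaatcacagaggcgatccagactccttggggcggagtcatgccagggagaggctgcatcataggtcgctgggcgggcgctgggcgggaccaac
Nr1d1 (chr11:98775378-98775627, reverse strand): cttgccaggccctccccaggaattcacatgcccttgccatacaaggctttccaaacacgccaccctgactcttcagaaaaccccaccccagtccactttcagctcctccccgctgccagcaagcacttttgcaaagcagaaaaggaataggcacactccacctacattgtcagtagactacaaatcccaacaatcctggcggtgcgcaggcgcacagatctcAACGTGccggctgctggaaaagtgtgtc
Per3 (chr4:151044666-151044915, reverse strand): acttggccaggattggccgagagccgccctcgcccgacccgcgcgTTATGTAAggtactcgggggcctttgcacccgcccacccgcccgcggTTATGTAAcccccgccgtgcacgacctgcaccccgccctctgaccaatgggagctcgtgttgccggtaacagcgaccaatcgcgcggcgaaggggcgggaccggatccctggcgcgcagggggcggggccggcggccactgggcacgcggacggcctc

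Ciart carried 3 E-boxes, whose first bases lay 116, 58 and 44 bases upstream of the start. Per1 had an E-box at 166 bases and Cry1 at 60 bases, so 3 of the 9 windows held CACGTG, which 6.02% of all 32851 RefSeq windows of that length also hold. CACGTT, read as AACGTG on the gene's strand, was found at 79 bases in Cry1, at 28 bases in Nr1d1 and at 166 bases in Cry2, against 3.85% of all windows. Per3 held the D-box TTATGTAA at 205 and at 158 bases, against 0.931% of all windows with either D-box form. The windows of Arntl, Clock and Dbp held none of the letters searched, and no window held the REV-ERB and ROR core (5.38% of all windows) or the cyclic AMP element (1.55%). The window of Per1 ends at the start of Per1-201. That of Dbp runs from 45704997 to 45705246, past the start of Dbp-201 at 45705088. It therefore lies partly within that transcript, and fewer than 250 bases upstream of Dbp-201 were searched. The windows of Cry1 and Ciart also run a few bases past the starts of Cry1-201 at 85185064 and Ciart-201 at 95882231. Distances given above are from the RefSeq starts. These matches describe letters of the reference assembly only, and the CAST sequence was not examined.

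The output gene Dbp was the most abundant of the 10 in each library, and the activator Arntl had the lowest mean. In replicate 1 Per2 lay below Arntl in both tables. Levels are TPM, a length-scaled share of all transcripts, as deposited in the gene table, with mean ± SD over n = 2 libraries. The second set of values comes from the table in the layout that kallisto writes, summed per gene and called here the kallisto-layout table. Gene coordinates are those of mm10. The muscle fibre markers Acta1, Ckm, Myh4, Tnnt3, Mylpf and Pvalb summed to 85390 and 82640 TPM in replicates 1 and 2, which is what the tissue label names. Gene totals were 35163970 and 35412240 expected counts, and p-values are absent throughout because there is 1 library on each side.

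Dbp (ENSMUSG00000059824.12, chromosome 7, 45705088 to 45710203), a transcription factor of the PAR bZIP family, had 66.92 TPM in replicate 1 and 66.32 TPM in replicate 2, a mean of 66.6 ± 0.42 TPM. Nr1d1 (ENSMUSG00000020889.11, chromosome 11, 98767932 to 98775333) represses Arntl and had 47.14 and 33.95 TPM. Per1 (ENSMUSG00000020893.17, chromosome 11, 69095217 to 69109960) had 32.67 and 36.23 TPM. The ranges of Nr1d1 and Per1 overlapped, so their order is not fixed in the gene table: Nr1d1 stood above Per1 in replicate 1 and below it in replicate 2. In the kallisto-layout table Nr1d1 was above Per1 in both libraries, at 44.14 and 32.44 TPM against 23.29 and 25.07 TPM.

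Cry2 (ENSMUSG00000068742.11, chromosome 2, 92403646 to 92434043) followed with 15.37 and 15.56 TPM. Its paralog Cry1 (ENSMUSG00000020038.10, chromosome 10, 85131700 to 85185064) had 5.31 and 4.57 TPM, so Cry2 was the main cryptochrome RNA of this muscle in each library. The deposited posterior SD of the count was 0 for both Cry genes, so their reads were not divided with other genes. Ciart (ENSMUSG00000038550.10, chromosome 3, 95878503 to 95882251) had 8.52 and 10.85 TPM, and held rank 5 of the 10 in both libraries and both tables.

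The lowest 5 genes lay close together. Clock (ENSMUSG00000029238.11, chromosome 5, 76209868 to 76304792) had 7.31 and 5.76 TPM. Per2 (ENSMUSG00000055866.9, chromosome 1, 91415982 to 91459324) had 4.22 and 7.48 TPM and ranked 10 and 6 of the 10 in the libraries. In the kallisto-layout table it ranked 10 and 9, and without its short transcript Per2-202, described with the transcripts, its level in replicate 2 was 4.9 TPM. Per3 (ENSMUSG00000028957.12, chromosome 4, 151003652 to 151044665) had 5.26 and 5.56 TPM. Neighbours among Clock, Per2, Per3 and Cry1 did not differ beyond the spread of the libraries, since each overlapped the next in the gene table. In the kallisto-layout table none of these neighbours overlapped, but Clock, at 6.67 and 5.68 TPM, overlapped Per3, so that order is not fixed either. There Per3, at 5.57 and 5.85 TPM, stood above Per2, at 3.88 and 4.70 TPM, in both libraries. Arntl (ENSMUSG00000055116.8, chromosome 7, 113207465 to 113314126) had 4.48 and 2.44 TPM, below both values of Cry1. The bounds deposited with these levels, 3.96 to 5.00 TPM and 2.10 to 2.90 TPM, did not overlap. Every other step of the order, from Dbp to Nr1d1, Per1 to Cry2, Cry2 to Ciart, Ciart to Clock and Cry1 to Arntl, held in both libraries without overlap.

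**Figure D1:**
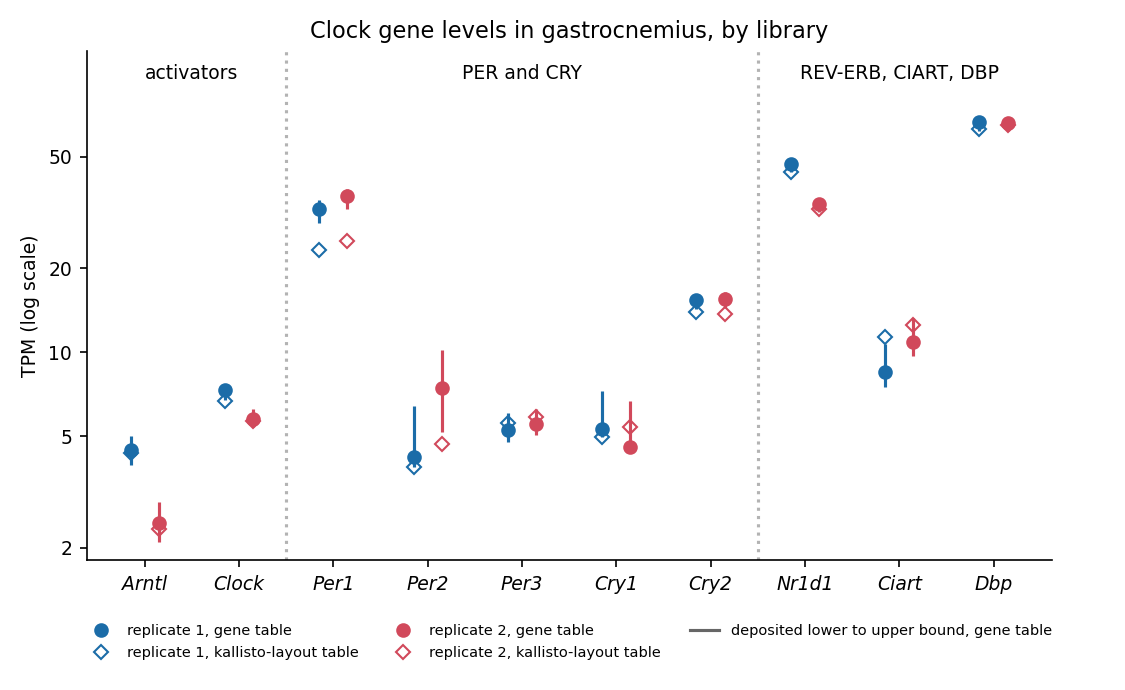
Level of each clock gene in TPM on a log axis, by library and by table; filled points are the gene table with its deposited lower and upper bounds, open diamonds the kallisto-layout table. Dbp lies at 66.92 and 66.32 TPM and Arntl at 4.48 and 2.44 TPM, while Per1 stands apart between the tables.

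The RNA of the 8 repressors and outputs was summed and set against that of the 2 activators. Arntl and Clock summed to 11.79 TPM in replicate 1 and 8.20 TPM in replicate 2. The 8 repressors and outputs summed to 185.4 and 180.5 TPM. Their sum was therefore 15.7 times that of the activators in replicate 1 and 22.0 times in replicate 2, a mean of 18.9 ± 4.45. The kallisto-layout table gave 15.4 and 20.6 times. These ratios rise with the 8 genes on one side against 2 on the other. Per gene the mean was 23.2 and 22.6 TPM for repressors and outputs and 5.89 and 4.10 TPM for activators, 3.93 and 5.50 times. Dbp, Nr1d1 and Per1 were far above the activators, but Per2, Per3 and Cry1 lay below Clock in replicate 1, at 0.577, 0.720 and 0.726 times its TPM. The activator sum was lower in replicate 2, while the other sum was nearly level.

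Between the libraries the 2 activators were lower in replicate 2 and 6 of the 8 other genes higher, where 50.7% of all 9741 genes were higher. For each gene the expected counts of replicate 2 were divided by those of replicate 1 after TMM scaling, and the exact binomial 95% interval of that log2 ratio covers counting error only. A gene is called here when it differed by at least a ratio of 5 to 4, which is 0.32 on the log2 scale. Per2 and Ciart were called higher in replicate 2 and Arntl lower, 3 of 10 genes. Among all 9741 genes with a mean of at least 100 expected counts, 7.63% were called, 3.27% higher and 4.35% lower. Among the 6352 genes within the members' own range of mean counts (238 to 3042), 4.49% were called, 1.94% higher and 2.55% lower.

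Arntl had 306 and 170 expected counts in replicates 1 and 2. Its log2 ratio was -0.79 (interval -1.08 to -0.52), a level 1.73-fold higher in replicate 1, and 0.595% of the 9741 genes were at least 1.5-fold lower in replicate 2. Clock, its partner, had a log2 ratio of -0.17 (-0.28 to -0.06) from 1414 and 1211 counts, so it lay on the same side but was not called. The median log2 ratio of these 2 activators was -0.48, against 0.0016 for all 9741 genes.

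The PER genes, the inhibitors that close the loop, lay on the other side, with 1 of 3 called. Per2 had a log2 ratio of 0.37 (0.22 to 0.53) from 618 and 773 counts. Per3, with 644 and 769 counts, had 0.31 (0.15 to 0.46) and fell just short of the threshold. Per1, with 2876 and 3207 counts, had 0.21 (0.14 to 0.28). All 3 intervals lay above 0. Their cryptochrome partners were closer to equality: Cry1 had a log2 ratio of -0.08 (-0.29 to 0.13) from 397 and 363 counts. Cry2 had 0.09 (-0.01 to 0.20) from 1473 and 1516 counts. Neither interval excluded 0, so a difference of either Cry gene was not detectable at this depth.

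Ciart had the highest ratio of the 10, with 254 and 334 counts and 0.45 (0.21 to 0.69). Dbp, with 2628 and 2770 counts, had 0.13 (0.05 to 0.21). Nr1d1 went the other way, at -0.32 (-0.40 to -0.24) from 3108 and 2404 counts, just outside the call. Thus Nr1d1, which represses Arntl, was lower in the same library as Arntl. The median of the 8 repressors and outputs was 0.17, which was 0.65 above that of the activators. With 2 activators that median is the midpoint of Arntl at -0.79 and Clock at -0.17, so the 0.65 leans on Arntl. In counts, 6 genes lay above 0 and 4 below, where 50.7% of all 9741 genes lay above 0. The interval excluded 0 for 5 of the 6 and 3 of the 4. That share was not computed over all genes, so these counts do not set the members apart. The interval covers counting error only, and for the abundant Ckm it excluded 0 at a ratio of 0.04 (0.03 to 0.05).

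**Figure D2:**
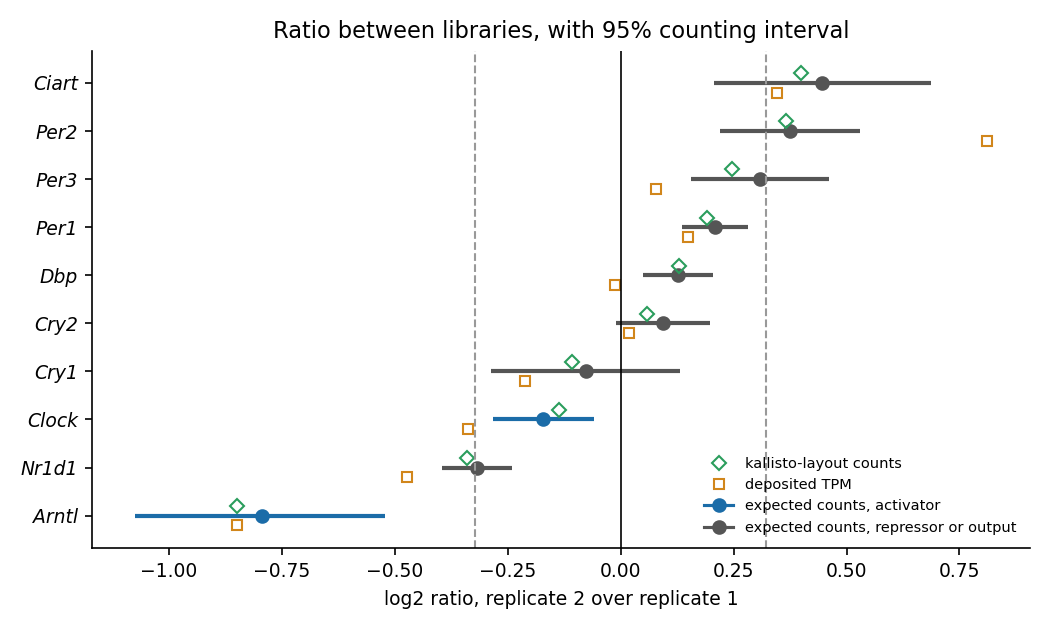
Log2 ratio of replicate 2 over replicate 1 for each clock gene; points and bars are expected counts with the 95% counting interval, diamonds the kallisto-layout counts, squares the deposited TPM, and dashed lines mark the call. Arntl lies at -0.79 and Ciart at 0.45, and Nr1d1 and Per3 lie at the dashed lines.

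Scaling moved the calls at the threshold but not those of Arntl and Ciart, which were made under all 7 alternatives to TMM scaling. Nr1d1 was called lower under 3 of them, with a range of -0.47 to -0.23. Per2 was called under 6, and its ratio ranged from 0.31 with library totals to 0.81 on the deposited TPM scale. Per3 was called only with spike-in totals, at 0.40, and Clock only on deposited TPM, at -0.34. The sign of Cry1 turned with spike-in totals (0.01) and that of Dbp on deposited TPM (-0.01). On that TPM scale the median of all genes was lower by 0.13 than with TMM. The split of all called genes moved too, from 319 higher and 424 lower with TMM to 203 and 667 with library totals, 667 and 201 with spike-in totals and 268 and 1585 on deposited TPM.

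**Figure D3:**
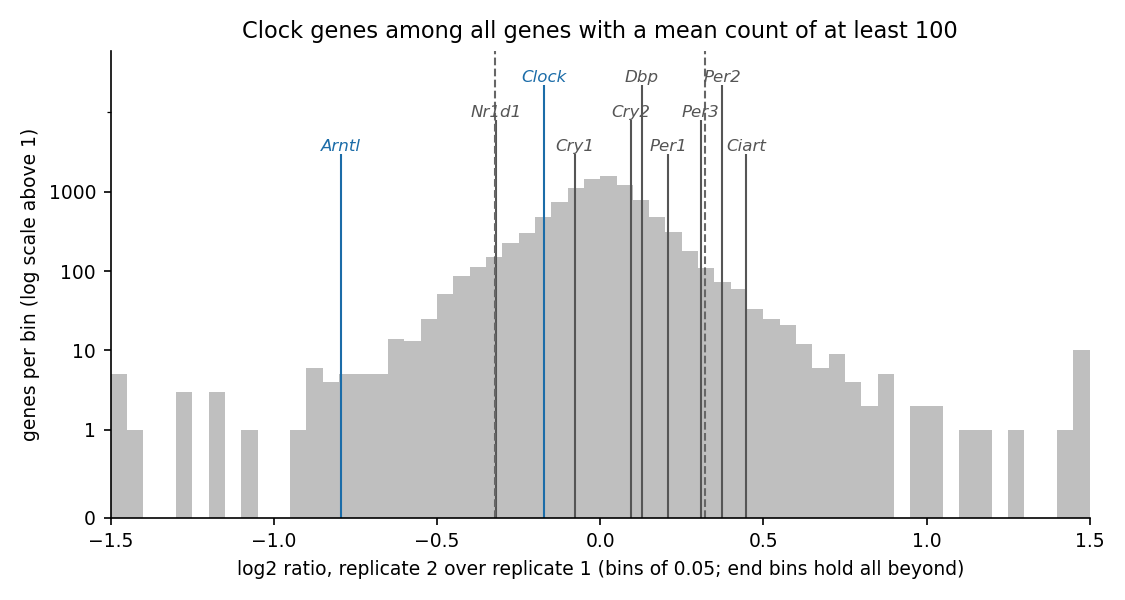
Number of genes per bin of log2 ratio (replicate 2 over replicate 1) for all 9741 genes with a mean of at least 100 counts, on a vertical axis that is logarithmic above 1, with the 10 clock genes as labelled lines. Arntl at -0.79 lies in the sparse lower tail; the dashed lines mark the call.

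A ratio of 2 genes within a library needs no scaling between libraries, and here all 9 ratios over Arntl were higher in replicate 2. Per1 RNA was 7.29 times Arntl RNA in replicate 1 and 14.8 times in replicate 2 by TPM of the gene table. By TPM of the kallisto-layout table it was 5.33 and 10.8 times. By counts this ratio was 2.00-fold higher in replicate 2, a log2 change of 1.00 (Wald 95% interval on the 4 counts 0.72 to 1.28). Ciart over Arntl changed most, by 1.24 (0.88 to 1.60), from 1.90 to 4.45 times by TPM. Nr1d1 over Arntl changed least, by 0.48 (0.19 to 0.76), from 10.5 to 13.9 times. Clock over Arntl changed by 0.62 (0.33 to 0.91), so the activators themselves did not keep their ratio. All 9 ratios over Arntl had an interval above 0, and all 9 share the counts of Arntl. The log2 ratio of Arntl itself, -0.79, enters each of them, so they are not 9 separate results. The share of all genes with such an interval, over Arntl or over Clock, was not computed. Against Clock in place of Arntl, the ratios of Per1, Per2, Per3, Cry2, Dbp and Ciart changed upward with intervals above 0. Cry1 over Clock changed by 0.09 (-0.14 to 0.33) and Nr1d1 over Clock by -0.15 (-0.28 to -0.01).

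The tables list 46 transcripts of the 10 genes, 28 of them protein coding and 10 with a retained intron, and their shares show which transcripts carried these levels. Nr1d1 and Cry2 were each almost a single coding transcript, Nr1d1-201 at 98.5 ± 1.04% of the gene's TPM and Cry2-201 at 91.3 ± 4.00%. The second transcripts, Nr1d1-202 and Cry2-202, held 1.47 ± 1.04% and 3.58 ± 1.20%. Clock was divided between Clock-201 (56.2 ± 2.53%) and the longer Clock-205 (31.0 ± 1.93%), whose starts lie at 76304548 and 76304792, with Clock-204 at 5.06% and 9.53% in the 2 libraries. In the kallisto-layout table the mean shares were 63.9% for Clock-201, 19.9% for Clock-205 and 11.6% for Clock-204.

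Both main transcripts of Arntl had fewer counts in replicate 2 in both tables, in different proportions. Arntl-201, which starts at 113207465, had 216 and 73.3 expected counts, with deposited posterior SDs of 30.3 and 24.9. Arntl-206, which starts 27158 bases downstream, had 71.2 and 63.3 counts, with posterior SDs near 21.5 and a log2 ratio of -0.12 (-0.63 to 0.39). In the kallisto-layout table Arntl-201 had 233 and 113 counts and Arntl-206 had 113 and 54.6. The shorter Arntl-203 held 3.35% and 14.7% of the RSEM TPM. The gene's total did not depend on this division, with a log2 ratio of -0.85 in the kallisto-layout table.

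The TPM of Per2 was raised in replicate 2 by a very short transcript. Per2-202, a noncoding transcript of 231 bases, had 0 counts in replicate 1 and 9.16 in replicate 2, and with an effective length of 131 bases these were worth 2.58 of the 7.48 TPM. The coding transcript Per2-201 had 618 and 764 counts and 4.22 and 4.91 TPM. The kallisto-layout table lists Per2-202 at 0 in both libraries, and there Per2 had 3.88 and 4.70 TPM. Per1 held a like case, in that Per1-204, of 496 bases, took 7.80 and 10.2 TPM from 79.0 and 110 counts but 0 in the kallisto-layout table. Without it Per1 had 24.9 and 26.0 TPM, near the kallisto-layout values given above. The main transcript Per1-201 held 48.5% and 34.5% of the RSEM TPM and 83.4% and 83.0% of the kallisto-layout TPM. Its counts of 1850 and 1553 and those of Per1-206, 642 and 1092, had posterior SDs between 335 and 373. The share of each is therefore poorly fixed, although the total count of Per1 is not. The total TPM of Per1 differed between the tables, at 32.67 and 36.23 against 23.29 and 25.07. Per1-202, which starts 3731 bases upstream of Per1-201, held 10.7% and 9.63% of the RSEM TPM and 13.7% and 13.8% of the kallisto-layout TPM.

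Per3 had the largest noncoding part among the 10 genes in replicate 1, 42.2% of its RSEM TPM, and 32.7% in replicate 2. Its coding transcript Per3-201 had 459 and 599 counts, a log2 ratio of 0.44 (0.26 to 0.61). Its deposited posterior SDs were 33.9 and 38.0 counts, and the interval leaves out that error of dividing reads between transcripts. The retained-intron transcripts Per3-202 (58.3 and 38.8 counts) and Per3-205 (83.5 and 53.2 counts) were lower in replicate 2, and the ratio of the gene includes them. Per3-203, marked for nonsense-mediated decay, had 35.4 and 63.6 counts. Dbp showed 65.5 ± 0.03% in Dbp-201 and 21.2 ± 4.34% in Dbp-204. In Ciart, whose 6 transcripts are all coding, Ciart-201 had 176 and 284 counts in the RSEM table and 127 and 263 in the kallisto-layout table. Ciart-202 went the other way in both tables, with 44.3 and 9.59 counts and with 54.0 and 15.2. Its shares depended on the table: Ciart-201 held 68.4 ± 8.50% of the RSEM TPM and 42.5% of the kallisto-layout TPM on average. Ciart-204 held 14.3 ± 1.91% against 26.0%, and Ciart-206 held 4.59 ± 0.49% against 18.1%. Cry1 was Cry1-201 alone in the RSEM table, and the kallisto-layout table gave the retained-intron Cry1-202, of 406 bases, 20.8% of its TPM in replicate 2 from 6.67 counts.

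**Figure D4:**
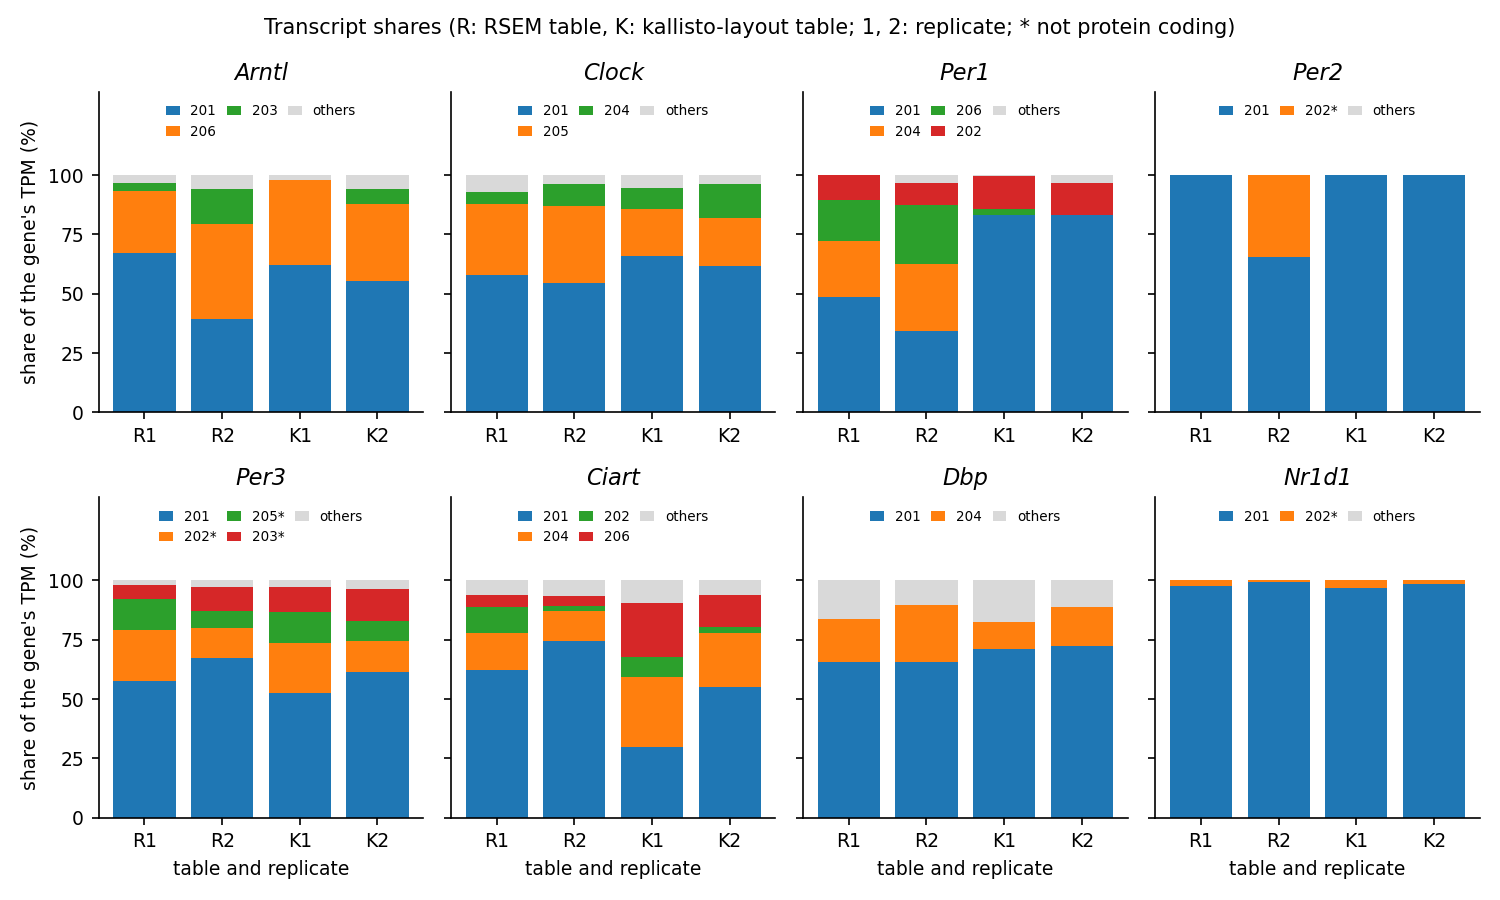
Share of each gene's TPM held by its main transcripts (numbers after the gene name) in the RSEM and kallisto-layout tables of each replicate; grey bars are all other transcripts and an asterisk marks a transcript that is not protein coding. Per2-202 appears only in the RSEM bar of replicate 2, and Per1-201 holds 48.5% and 34.5% in the RSEM table against 83.4% and 83.0% in the other.

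Exons of 4 of the 10 genes share bases with a gene on the opposite strand. Nr1d1 shares 263 exon bases with Thra (1829 and 1674 counts), Dbp 539 with Sphk2 (410 and 377 counts), Cry2 295 with D930015M05Rik and Arntl 33 with Gm45355, both at 0 counts in each library. The library kit is directional, but the sources used here do not say whether the counting used strand. The deposited posterior SD of the gene count was 0 for these 4 genes in both libraries. No member shares exon bases with a gene on its own strand.

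Other genes of the clock are given for reference. Of 9 further core genes, 5 had 100 counts and 0 were called, with a median log2 ratio of 0.06. With 7.63% of all genes called, a count of 0 in lists this short sets them apart neither from all genes nor from the members. Among their most abundant members were Bhlhe40, an E-box repressor, at 53.7 ± 7.40 TPM and a ratio of -0.16, and Rora, an activator of Arntl, at 44.8 ± 1.31 TPM and 0.11. The D-box factors Tef (82.7 ± 2.92 TPM), Nfil3 (7.59 ± 0.35 TPM) and Hlf (6.40 ± 0.19 TPM) had ratios of 0.07, 0.04 and 0.20, and 0 of 3 were called. Of the 10 kinases, ubiquitin ligases and proteases that act on clock proteins, 9 had 100 counts and 0 were called, with a median of 0.03. Usp2, a deubiquitinase, led them at 101.6 ± 1.59 TPM, with Huwe1 at 50.2 ± 7.70 TPM and Csnk2a1 at 44.9 ± 2.11 TPM.

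Of 12 muscle genes linked to the clock with 100 counts, 1 was called, a share near the 7.63% of all genes. It was Ucp3, a mitochondrial carrier of muscle, at 0.45 (0.37 to 0.52) from 2478 and 3255 counts. Tcap, a Z-disc protein, was at 0.06, Pdk4, a brake on pyruvate use, at 0.09 and Pfkfb3, an activator of glycolysis, at -0.24. Of the 8 glucocorticoid response genes with 100 counts, 7 lay below 0 and the median was -0.11. Zbtb16 was called lower at -0.40 (-0.47 to -0.34) and Ddit4 higher at 0.41 (0.14 to 0.68), while the most abundant, Tsc22d3, Sgk1 and Klf9, had ratios of -0.12, -0.18 and -0.06. Immediate early genes had a median of 0.27, with 3 of 6 called higher: Dusp1 at 0.38, Btg2 at 0.50 and Fos at 0.57. Their most abundant members besides Dusp1 were Nr4a1 at 0.17 and Jun at -0.02. Of 6 temperature-sensitive genes with 100 counts, Hspa1a was called lower (-0.39, from 139 and 102 counts), and Hspa8, Hspb1 and Rbm3 had 0.07, 0.20 and 0.04. Hspa1b, under 100 counts, went the other way, at 0.37 from 75 and 93 counts.

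Most adipocyte markers and part of the endothelial markers were called lower in replicate 2, as Arntl was, and 7.63% of all genes were called in either direction. Of 7 endothelial markers with 100 counts 4 were called lower (Cdh5, Tie1, Kdr and Emcn), while Pecam1 (-0.23), Egfl7 (-0.09) and Vwf (0.11) were not called. Their median was -0.42, and the 8 endothelial markers summed to 69.0 and 51.5 TPM. Of 7 adipocyte markers 6 were called lower, all but Cfd (0.26), with a median of -0.38 and sums of 221 and 159 TPM. Smooth muscle and pericyte markers had a median of -0.22 with 2 of 7 called lower (Rgs5 and Kcnj8), and Abcc9, Tagln and Myh11 lay above 0. They summed to 209 and 174 TPM. Fibroblast markers had 0.13, with 2 of 6 called higher (Col1a1 and Col1a2) and sums of 273 and 272 TPM. Leukocyte markers had -0.05 with C1qa called lower and sums of 40.1 and 35.0 TPM, and erythroid genes -0.08 with 0 of 4 called. Schwann cell markers had -0.26 with 0 of 2 called, and Cdh15 alone of 4 satellite cell markers had 100 counts, at -0.05. No marker of these lists was at 0 in a library. Their part in the ratios of the clock genes was not tested, and in bulk RNA fewer cells of a type and less RNA per cell cannot be told apart.

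**Figure D5:**
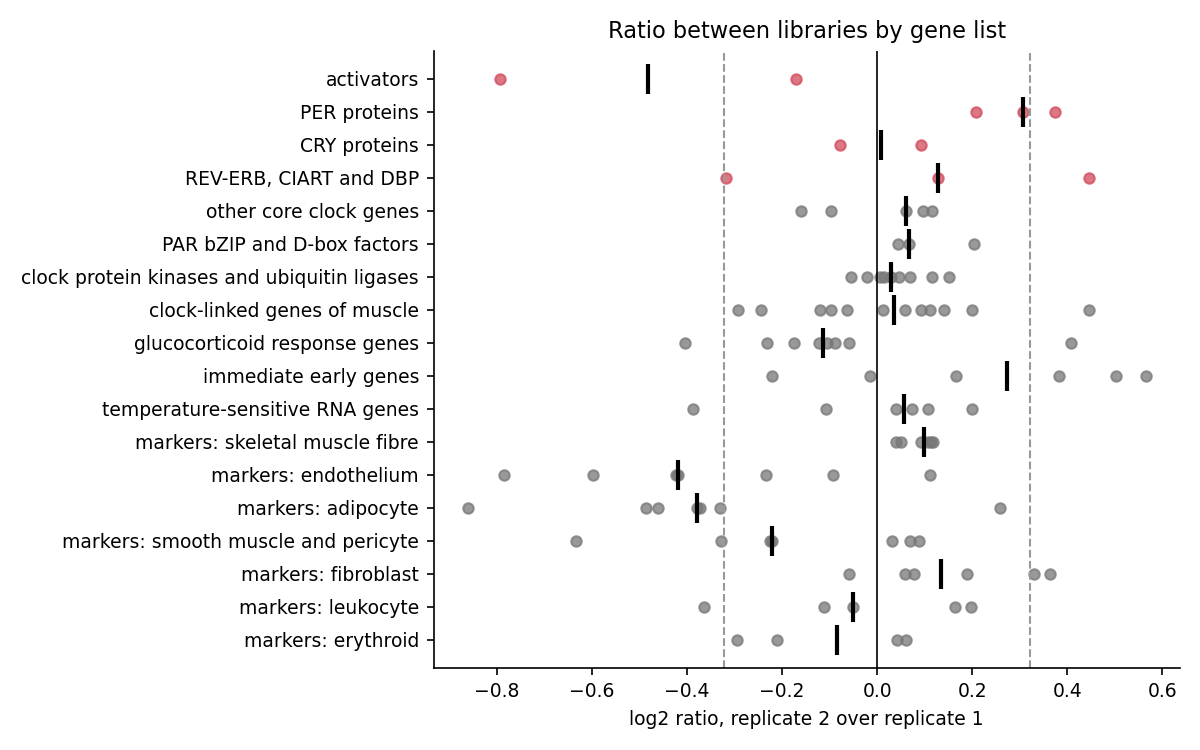
Log2 ratio of replicate 2 over replicate 1 for each gene with at least 100 counts, by list; red points are the 10 clock genes, black ticks the median of each list and dashed lines the call. The activators have a median of -0.48 and the PER genes 0.31, and endothelial and adipocyte markers have medians of -0.42 and -0.38.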

How the data were processed

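Directional libraries with reduced ribosomal RNA and ERCC spike-ins were made from column-purified RNA, per the labels' protocols. The authors deposited, on mm10 with the M21 gene set, an RSEM gene table and transcript table of expected counts and TPM per library, and a kallisto-layout transcript table of estimated counts and TPM, per the file headers and notes. The sources used here give no aligner or version. Symbols came from the kallisto-layout names, and from the M21 annotation where absent. Spike-in and other rows that name no gene (0.527% and 0.474% of counts) were left out of library sizes. Expected counts were rounded for TMM (edgeR 4.0.16, R 4.3.3, 14370 genes with a mean of at least 10), ratios used a prior of 0.5 counts, and TPM ratios a pseudocount of 0.1. Alternatives to TMM scaling were library totals, size factors of DESeq2 1.42.0, spike-ins, TPM, the kallisto-layout table, a prior of 2 and no filter. The steps were tested on simulated data. The members and lists were chosen with earlier results of these data known. Named genes are the 10 members and, per list, the 3 of highest TPM and those called, with Hspa1b added beside Hspa1a. A gene of the core clock list that this rule names is not reported here. For transcripts, each gene's 2 highest and others at 10% of its TPM in a table are named. Counting intervals treat reads as independent, and with 1 library per side no p-value is given, so spread between replicates may be technical. Tables were handled in Python 3.11.15 (pandas 2.3.3, numpy 2.4.6), intervals made with scipy 1.17.1 and figures with matplotlib 3.10.9.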

Additional observations from a re-analysis of the deposited data

How the results depend on the processing

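The sum of the 8 repressors and outputs over that of the 2 activators was 15.7 to 22.0 in the single libraries by TPM, 18.0 in the kallisto-layout table, 18.6 by posterior mean TPM, 18.5 with protein-coding transcripts alone (chosen after seeing the data) and 7.88 by expected counts, which are not scaled by length. The median log2 ratio of repressors and outputs was above that of the activators by 0.64 to 0.65 under TMM and all 7 alternatives. This difference leans on Arntl, 1 of only 2 activators. A scaling factor between libraries cancels in it, so a change of scaling alone could not move it. Only deposited TPM (0.643), the kallisto-layout table (0.653) and the prior of 2 (0.648) could. The number of genes called was 743, but 1853 on deposited TPM, where the cause was not tested, and 3040 with a minimum of 10 counts in place of 100, which admits more genes. Of 70 member ratios recomputed, 62 stayed inside the counting interval of the TMM value and 8 did not, 5 of these on deposited TPM and 3 with spike-in totals. No paired analysis was possible because the series holds 1 group. A ratio between libraries cannot be computed without either library. Depth limits the genes of fewest counts most, Arntl and Ciart.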

Other observations

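Retained-intron transcripts of Per3 and Dbp were lower in replicate 2 while the coding transcripts of the same genes were higher, a pattern chosen after its values were seen. Retained-intron counts of Per3 were 142 and 92.0, and its coding counts 459 and 599, so the log2 ratios were -0.57 and 0.44. For Dbp the retained-intron counts were 297 and 205 and the coding counts 2331 and 2565, with log2 ratios of -0.48 and 0.19. The kallisto-layout table gave -0.49 and 0.38 for Per3 and -0.55 and 0.21 for Dbp. Over 2267 genes of the RSEM table with a mean of at least 20 retained-intron counts and 100 coding counts, the median difference between these ratios was 0.05, and 18.9% of genes had a difference of -0.5 or lower. Per3 (-1.01) and Dbp (-0.67) were the only members with that many retained-intron counts.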
